A study of Mus musculus with 2 samples.

Results

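A set of 40 cell cycle genes was followed through single cells of mouse alveolar bone, 13 acting in S phase, 19 in G2 and mitosis, and 8 chromatin, tubulin and nuclear transport genes whose transcripts are abundant in dividing cells. The members were taken by symbol from both count tables, where each occurred once among 27998 genes, and the rule that picks them uses no measured value. Male C57/B6 J mice of 8 weeks were used, and cells of their alveolar bone positive for F4/80 and CD11b were sorted and sequenced as 1 droplet library without force (control) and 1 after a week of orthodontic tooth movement (OTM, labelled Case), in which a nickel-titanium coil spring pulled the left first molar. The mice were divided at random between the groups, and the methods give their total but not how many were pooled into each library. A cell was kept with at least 200 genes and at most 5% of its unique molecular identifiers (UMIs, each marking 1 captured transcript) from mitochondrial genes, which left 2835 of 2863 control and 2052 of 2058 OTM barcodes.

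Before a cell divides it copies its DNA in S phase, when the Mcm2 to Mcm7 helicase opens the origins, Pcna clamps the polymerase to its template and ribonucleotide reductase (Rrm1 and Rrm2) supplies deoxynucleotides. Cyclins A and B with Cdk1 then carry the cell through G2 into mitosis, centromere and spindle proteins pull the chromosomes apart, and Cdc20 and Ube2c direct the destruction of the cyclins at its end. In bone marrow, granulocyte progenitors and cells filling their specific granules still divide, whereas segmented neutrophils have left the cycle, and monocyte progenitors likewise stop dividing as they mature.

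Both libraries are labelled as macrophages, but the marker genes divided the cells otherwise. By the mean log level of 18 granulocytic markers (S100a8, S100a9, Camp and others) minus that of 18 monocytic markers (Csf1r, Ccr2, Ly6c2 and others), 1282 control cells (45.2% of those kept) and 1083 OTM cells (52.8%) were granulocytic, and 1438 and 899 were monocytic. Adgre1, which encodes F4/80, had a UMI in 6.63% of granulocytic and 33.0% of monocytic control cells, and in 8.59% and 50.4% of OTM cells. Early progenitors, with at least 0.5% of their UMIs from the azurophil granule genes Elane, Mpo, Prtn3 and Ctsg, were held apart and numbered 77 and 57. Granulocytic cells were divided further into a specific-granule group (Camp, Ngp, Ltf, Lcn2, Cebpe and Fcnb high; 768 control and 562 OTM cells) and mature neutrophils (Retnlg, Cxcr2 and Csf3r high; 514 and 521 cells), and monocytic cells into an MHC-II-low (1041 and 747), an MHC-II-high (353 and 143) and a C1q-high group (44 and 9). No cell cycle gene was used in any of these divisions. The groups are ranges of a score, with 65 control and 60 OTM cells within 0.25 of the granulocytic cut, and those cells had intermediate medians of both scores (2.16 for granulocytic and 1.34 for monocytic markers, against 2.86 and 0.498 in granulocytic and 0.896 and 1.64 in monocytic cells).

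OTM cells held more UMIs, with a median of 6861.5 against 3998 in control, and 6 barcodes occurred in both libraries. Levels are therefore given as UMIs of a gene for every 1000000 UMIs of the cell group (CPM), and intervals are 95% intervals for counting error only. With 1 library a group there was no replicate check and no test, and OTM cannot be told apart from the library, its batch or its animals. A member was called higher or lower past 1.5-fold with at least 50 UMIs over both libraries, which all 40 reached in granulocytic and in monocytic cells.

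Promoter sequences are shown first for 4 members past 1.5-fold in 1 of the comparisons (Rrm2, Bub1, Mki67 and Cenpf) and for Mcm5, an S member with an E2F site, with the letters that sites known from cell cycle promoters would have. RefSeq start sites of GRCm38.p6 were found for 33 of the 40 members, and none were found for Mcm4, Gmnn, Ccna2, Aurkb, Tpx2, H2afx and Stmn1. In the 250 bases before the start, the CCAAT box (CCAAT), bound by NF-Y, was present on either strand in 27 of 33 members (81.8%), compared with 37.5% of all 27018 genes in the table. The cell cycle homology region (TTTGAA or TTCGAA), a site known from late cell cycle genes, was present in 7 of 16 G2/M members (43.8%) and 2 of 11 S members (18.2%), against 19.5% of all genes. An E2F site (TTTCCCGC, TTTCGCGC, TTTGCCGC or TTTGGCGC), named for the factors that switch on S-phase genes, was present in 3 of 11 S members (27.3%) and 1 of 16 G2/M members (6.25%), against 2.16% of all genes. The windows are written 5′ to 3′ on the strand of the gene, with the matched letters in capitals. They belong to Rrm2 (plus strand, chr12:24708004-24708253), Mcm5 (plus, chr8:75109259-75109508), Bub1 (minus, chr2:127831860-127832109), Mki67 (minus, chr7:135716380-135716629) and Cenpf (minus, chr1:189688087-189688336). In Mcm5 the first run of capitals joins 2 overlapping E2F matches, and in Mki67 the last 2 runs are the homology region. A match is a string of letters, and neither it nor its absence shows whether a factor binds.
Rrm2: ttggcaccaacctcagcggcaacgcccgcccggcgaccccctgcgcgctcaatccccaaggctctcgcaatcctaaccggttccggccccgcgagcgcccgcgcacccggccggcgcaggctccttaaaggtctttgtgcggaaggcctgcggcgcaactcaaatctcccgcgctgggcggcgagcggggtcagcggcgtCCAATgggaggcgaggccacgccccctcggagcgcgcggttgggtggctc
Mcm5: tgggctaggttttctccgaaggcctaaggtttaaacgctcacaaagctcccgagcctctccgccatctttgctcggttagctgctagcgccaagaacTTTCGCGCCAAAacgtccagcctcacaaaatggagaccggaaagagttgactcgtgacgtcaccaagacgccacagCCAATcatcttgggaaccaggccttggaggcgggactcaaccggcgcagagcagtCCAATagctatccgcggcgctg
Bub1: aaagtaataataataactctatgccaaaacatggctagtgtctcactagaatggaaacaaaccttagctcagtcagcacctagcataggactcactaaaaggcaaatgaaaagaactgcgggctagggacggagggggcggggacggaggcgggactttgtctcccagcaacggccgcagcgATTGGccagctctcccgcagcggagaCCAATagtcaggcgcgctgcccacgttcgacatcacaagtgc
Mki67: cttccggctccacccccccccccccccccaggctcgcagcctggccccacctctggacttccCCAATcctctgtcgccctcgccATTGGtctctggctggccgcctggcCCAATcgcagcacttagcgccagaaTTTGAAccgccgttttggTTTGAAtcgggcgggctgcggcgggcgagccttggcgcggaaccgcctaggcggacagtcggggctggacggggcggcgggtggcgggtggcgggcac
Cenpf: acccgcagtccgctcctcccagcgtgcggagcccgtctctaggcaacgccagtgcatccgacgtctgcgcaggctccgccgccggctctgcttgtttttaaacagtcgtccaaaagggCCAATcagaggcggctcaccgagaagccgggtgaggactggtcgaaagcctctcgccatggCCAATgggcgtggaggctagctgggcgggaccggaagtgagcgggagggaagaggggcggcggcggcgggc

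The first comparison asked where along each lineage the S and G2/M genes were expressed. In granulocytic development both lists were highest in early progenitors, high in specific-granule cells and lowest in mature neutrophils. The 8 core S genes (Mcm2 to Mcm7, Pcna and Rrm2) summed to 749 CPM in control early progenitors, 302 in specific-granule cells and 36.3 in mature neutrophils. In OTM the same sums were 1144, 436 and 56.2 CPM. The 19 G2/M genes summed to 1556, 1263 and 71.2 CPM in control and to 1911, 1424 and 66.9 CPM in OTM. From specific-granule to mature cells the G2/M sum was 17.7-fold lower in control (14.6 to 21.8) and 21.3-fold lower in OTM (18.2 to 25.1), and the core S sum was 8.30-fold (6.28 to 11.2) and 7.75-fold (6.50 to 9.31) lower.

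**Figure D1:**
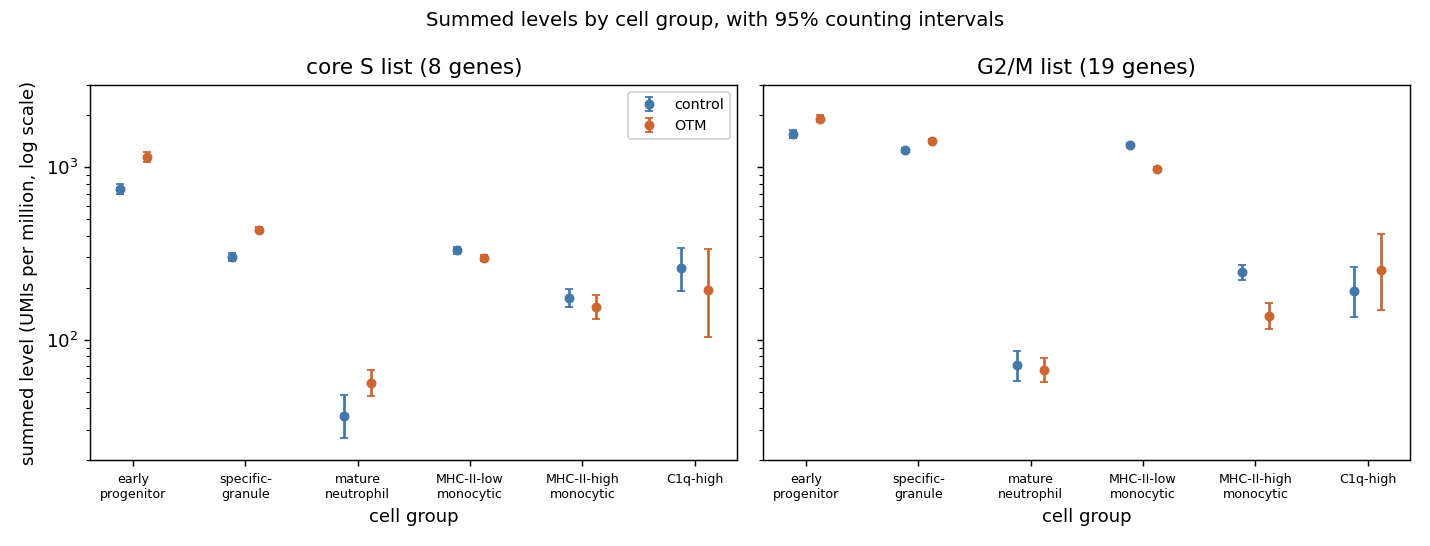
Summed level of the 8 core S genes (left) and the 19 G2/M genes (right) in 6 cell groups, in CPM on a log axis, control in blue and OTM in orange, 1 library each, with 95% counting intervals. Both lists are lowest in mature neutrophils (G2/M 71.2 and 66.9 CPM), and the G2/M list is lower in OTM than in control in MHC-II-low cells (980 against 1351 CPM).

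Among monocytic cells the MHC-II-low group had the highest sums of both lists. The G2/M sum was 1351 CPM in MHC-II-low, 247 in MHC-II-high and 192 in C1q-high control cells, and 980, 138 and 255 CPM in OTM, where the last value rests on 17 UMIs from 9 cells. The core S sum was 331, 175 and 260 CPM in control and 298, 155 and 195 in OTM. Pcna, which also acts in DNA repair, made up much of what was left of the core S sum in MHC-II-high cells, at 111 CPM in control (178 of 279 UMIs) and 116 CPM in OTM (116 of 155 UMIs). In these cells Rrm2 was at 11.9 and 5.00 CPM and the 6 Mcm genes together gave 82 and 34 UMIs.

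Single members differed in how far they were lower in mature neutrophils. Ube2c, the ubiquitin-conjugating enzyme that ends mitosis, was at 288 CPM in specific-granule and 11.4 CPM in mature control cells, and at 320 and 7.29 CPM in OTM. Rrm2 was at 98.5 and 2.14 CPM in control and at 207 and 7.29 CPM in OTM. Top2a, the topoisomerase that untangles sister chromatids, was at 97.6 and 4.99 CPM in control and at 97.5 and 3.43 CPM in OTM. Cenpa, the centromeric histone, was at 135 and 22.1 CPM in control and at 128 and 15.9 CPM in OTM. Pcna was lower in mature cells by 3.78-fold (2.68 to 5.51) in control and 2.38-fold (1.91 to 3.01) in OTM. Of the 19 G2/M members, 11 in control and 8 in OTM had at most 3 UMIs in all mature neutrophils, among which Cenpf, Aurkb and Tpx2 in control and Kif11 in OTM had none.

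Of the chromatin members, 3 kept high levels in mature neutrophils. H2afz, the histone variant H2A.Z, was at 717 CPM in mature neutrophils of control and 710 in OTM, 3.64-fold (3.42 to 3.89) and 3.86-fold (3.67 to 4.06) below specific-granule cells. Hmgb2, a DNA-bending protein, was at 1232 and 1087 CPM, 2.24-fold and 2.85-fold below. Hmgn2, a nucleosome-binding protein, was at 463 and 433 CPM, 4.11-fold and 5.82-fold below. The tubulins Tubb5 (18.5 and 34.7 CPM) and Tuba1b (35.6 and 50.6 CPM), the microtubule destabiliser Stmn1 (8.55 and 16.7 CPM), the histone H2afx (14.2 and 9.86 CPM) and the importin Kpna2 (6.41 and 3.86 CPM) were 9.44-fold to 33.2-fold below specific-granule cells in control and 7.95-fold to 25.0-fold in OTM. H2afz, Hmgb2, Hmgn2, Tuba1b, Tubb5 and Stmn1 belong to families with similar copies and processed pseudogenes, so reads may have been lost to or gained from a copy and their levels are uncertain to that extent.

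The share of S against G2/M transcripts was read as the ratio of UMIs of the core S genes to UMIs of the G2/M genes, which does not depend on the total of the library. The ratio was higher in OTM than in control in both classes. In granulocytic cells it was 0.243 (0.230 to 0.258) in control and 0.316 (0.302 to 0.330) in OTM, and in monocytic cells 0.273 (0.260 to 0.287) and 0.323 (0.307 to 0.34). Control and OTM thus lay outside each other's counting interval, with a ratio of OTM to control of 1.30 (1.21 to 1.39) in granulocytic and 1.18 (1.10 to 1.27) in monocytic cells. Between the classes of control the order of the ratio turned with the settings. It was lower in granulocytic cells as given, but higher with at least 200 genes for every 1000 UMIs (0.450 against 0.290), with early progenitors counted as granulocytic (0.294 against 0.273), with the class cut at 0 (0.262 against 0.259) and without the genes with the most UMIs (0.212 against 0.188).

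In granulocytic cells the difference rested on 1 gene with the main filter. Rrm2, the regulatory subunit of ribonucleotide reductase, gave 452 of the 1426 core S UMIs in control and 1232 of 2682 in OTM. Without Rrm2 the granulocytic ratio was 0.166 in control and 0.171 in OTM, a ratio of 1.03 (0.939 to 1.12). In monocytic cells the ratio without Rrm2 was 0.235 and 0.274, still 1.16-fold apart (1.08 to 1.25), and there the G2/M sum was the lower one in OTM (859 against 1078 CPM). For the 6 Mcm genes alone against G2/M, OTM over control was 1.10 (0.980 to 1.24) in granulocytic and 1.14 (1.03 to 1.27) in monocytic cells. With all 13 S genes the ratio was 0.564 and 0.625 in granulocytic cells, 1.11-fold apart (1.05 to 1.17), and 0.643 and 0.657 in monocytic cells, 1.02-fold apart (0.968 to 1.08). With at least 200 genes for every 1000 UMIs the granulocytic core S to G2/M ratio was 0.450 in control and 0.675 in OTM. There Rrm2 was at 0.799 in OTM over control, beside 0.790 for the core S sum. The ratio without Rrm2 was not read under that filter.

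In early progenitors the core S to G2/M ratio was above that of the specific-granule and the MHC-II-low cells, at 0.482 (0.441 to 0.526) in control and 0.598 (0.551 to 0.649) in OTM. It was 0.239 and 0.306 in specific-granule cells and 0.245 and 0.304 in MHC-II-low cells. Here too the early progenitor difference went with Rrm2, and without it the ratio was 0.390 in control and 0.361 in OTM. Mature neutrophils (0.510 and 0.840) and MHC-II-high cells (0.708 and 1.12) had higher ratios still in OTM, from small sums, with 131 core S and 156 G2/M UMIs in mature neutrophils and 155 and 138 in MHC-II-high cells of that library.

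In summed level, the core S genes of granulocytic cells were at 239 CPM in control and 327 in OTM (1.37, 1.28 to 1.46) and the G2/M genes at 983 and 1038 CPM (1.06, 1.02 to 1.09). With at least 200 genes for every 1000 UMIs these ratios were 0.790 (0.676 to 0.921) and 0.526 (0.466 to 0.593). That of Rrm2 was 0.799, with an interval that included 1 (0.589 to 1.07). The directions of the 2 sums thus hold for the filter used and turn under that one, where Rrm2 was not higher in OTM. Rrm2 was the member with the largest difference between the libraries in granulocytic cells. It was at 75.8 CPM in control and 150.4 CPM in OTM, 1.98-fold higher (1.78 to 2.21), and had a UMI in 12.6% and 18.5% of the cells. In early progenitors it was at 143 and 453 CPM, 3.17-fold higher (2.61 to 3.87), and in specific-granule cells at 98.5 and 207 CPM, 2.11-fold higher (1.89 to 2.35). In monocytic cells it was at 40.9 and 42.7 CPM, a ratio of 1.04 (0.887 to 1.23). Its partner Rrm1, the catalytic subunit, was at 21.8 and 30.6 CPM in granulocytic cells, 1.41-fold higher (1.13 to 1.75), at 54.5 and 51.0 CPM in early progenitors and at 31.2 and 27.1 CPM in monocytic cells. The UMI ratio of Rrm2 to Rrm1 was 2.62 (1.91 to 3.64) in control and 8.88 (6.44 to 12.5) in OTM early progenitors, 3.48 and 4.91 in granulocytic cells, and 1.31 and 1.57 in monocytic cells. Rrm2 thus stood apart from Rrm1 most in early progenitors of the OTM library.

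**Figure D2:**
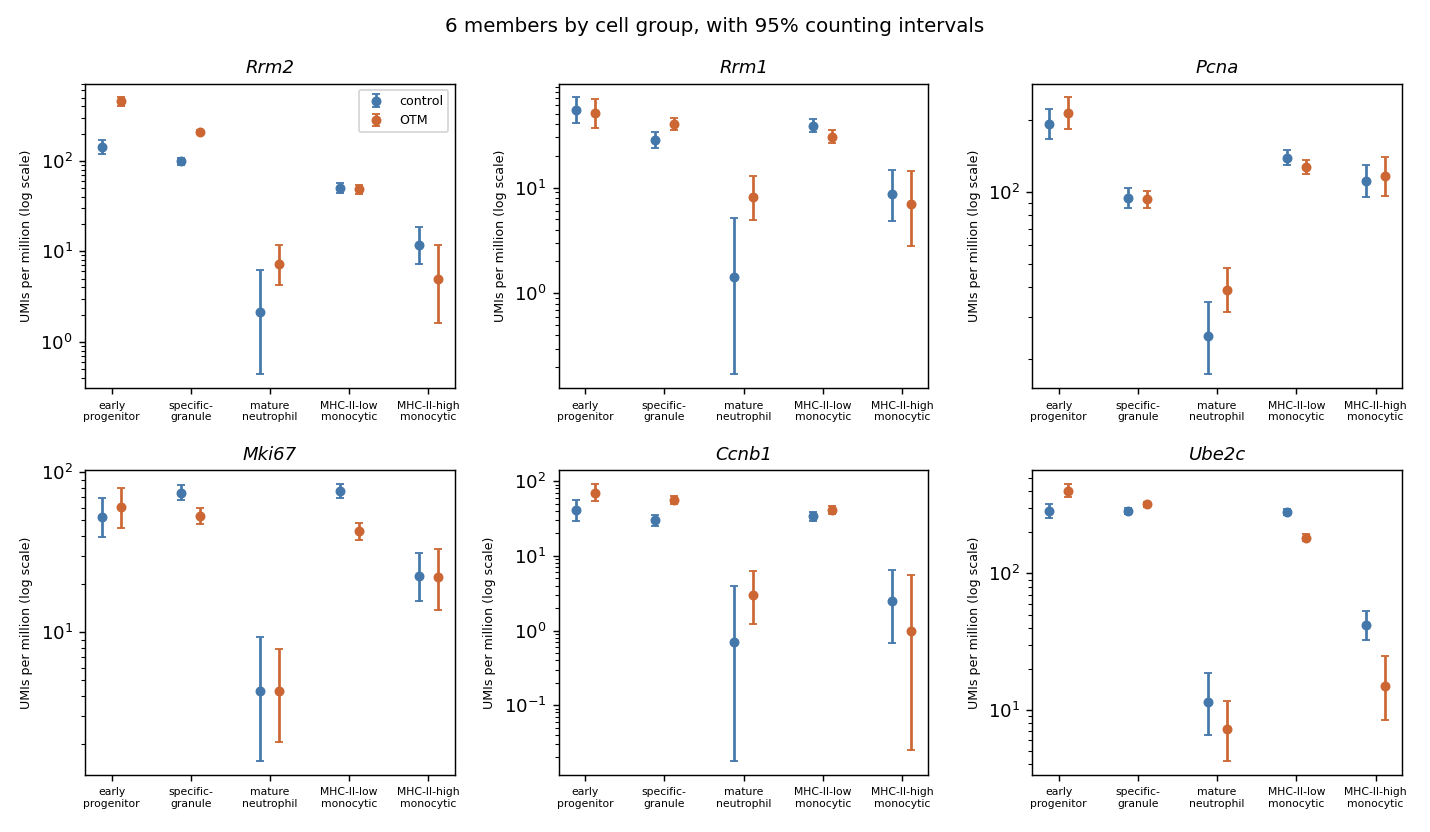
Levels of Rrm2, Rrm1, Pcna, Mki67, Ccnb1 and Ube2c in 5 cell groups, in CPM on log axes that differ between panels, control in blue and OTM in orange, 1 library each, with 95% counting intervals. Rrm2 is higher in OTM in early progenitors (453 against 143 CPM) and specific-granule cells (207 against 98.5 CPM), and Mki67 is lower in OTM in MHC-II-low cells (42.9 against 76.6 CPM).

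The remaining S members of granulocytic cells lay between 0.919 and 1.48 in OTM over control. The helicase subunits gave Mcm2 5.03 and 7.45 CPM, a ratio of 1.48 whose interval was wide (0.941 to 2.37), and Mcm4 10.4 and 13.9 CPM, a ratio of 1.34. Mcm6 (1.24), Mcm7 (1.23), Mcm5 (1.07) and Mcm3 (0.946) had ratios with intervals that included 1. Pcna was level, with 78.0 CPM in control and 77.7 in OTM. Tyms, which makes thymidylate, was at 35.2 and 42.3 CPM (1.20), Tk1, thymidine kinase, at 16.3 and 15.9 CPM (0.976), and Gmnn, which blocks a further round of origin licensing, at 46.0 and 42.3 CPM (0.919). 2810417H13Rik, the Pcna-binding factor now named Pclaf, was at 196 and 190 CPM (0.969).

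Among the granulocytic G2/M members Ccnb1, Ccna2 and Bub1 passed 1.5-fold, all higher in OTM, but each was below 1 with at least 200 genes for every 1000 UMIs (0.923, 0.524 and 0.30). Under that filter the interval of each included 1. Ccnb1, cyclin B1, was at 23.0 CPM in control and 40.9 in OTM, 1.78-fold higher (1.45 to 2.19). Ccna2, cyclin A2, was at 22.1 and 33.5 CPM, 1.51-fold higher (1.22 to 1.87). Bub1, a kinase of the spindle checkpoint, was at 5.37 and 9.77 CPM, 1.82-fold higher (1.19 to 2.83) from 32 and 80 UMIs. Short of 1.5-fold, Ccnb2 was at 55.4 and 74.1 CPM (1.34), Cdk1 at 64.7 and 81.6 CPM (1.26), Nusap1, a spindle-associated protein, at 42.4 and 54.9 CPM (1.29), and Cdc20 at 40.9 and 50.3 CPM (1.23). Mki67, which coats mitotic chromosomes and is the usual proliferation marker, was at 58.0 and 39.3 CPM, a ratio of 0.677 (0.580 to 0.791), just inside the 1.5-fold limit. Birc5, survivin, was at 142 and 126 CPM (0.889), Cenpa at 108 and 95.9 CPM (0.885), and Top2a at 75.8 and 70.7 CPM (0.932). The other 8 G2/M members were the mitotic kinases Aurka (0.823), Aurkb (1.29) and Plk1 (1.31), the spindle and kinetochore proteins Tpx2 (1.05), Kif11 (1.06), Cenpe (1.14) and Cenpf (0.980), and Ube2c (1.04), and each of these 8 intervals included 1.

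Of the 40 members, 4 (10.0%) were past 1.5-fold higher in OTM granulocytic cells, namely Rrm2, Ccna2, Ccnb1 and Bub1, and 0 were past it lower. Of all 6791 genes with at least 50 UMIs, 7.82% were higher and 12.4% lower by that much. The share of members called higher was near the background and is not a result about the members. The median ratio of the members was 1.16, with 28 of 40 above 1, and that of all genes 0.984. In specific-granule cells 5 members were higher, with Mcm2 (1.73) added to these 4, and 0 lower, against 8.18% and 11.3% of all genes, and the medians were 1.24 for the members and 1.01 for all genes. These granulocytic directions rest on the cell filter. Another filter counts genes relative to UMIs, which is how the methods of the study word theirs. It kept 957 control and 404 OTM granulocytic cells, which were shallower, most of all in OTM. Their medians were 2726 UMIs in control and 3210.5 in OTM, against 3198.5 and 5341 with the main filter. All 4 members called higher were then below 1 (Rrm2 at 0.799), with intervals that included 1.

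**Figure D3:**
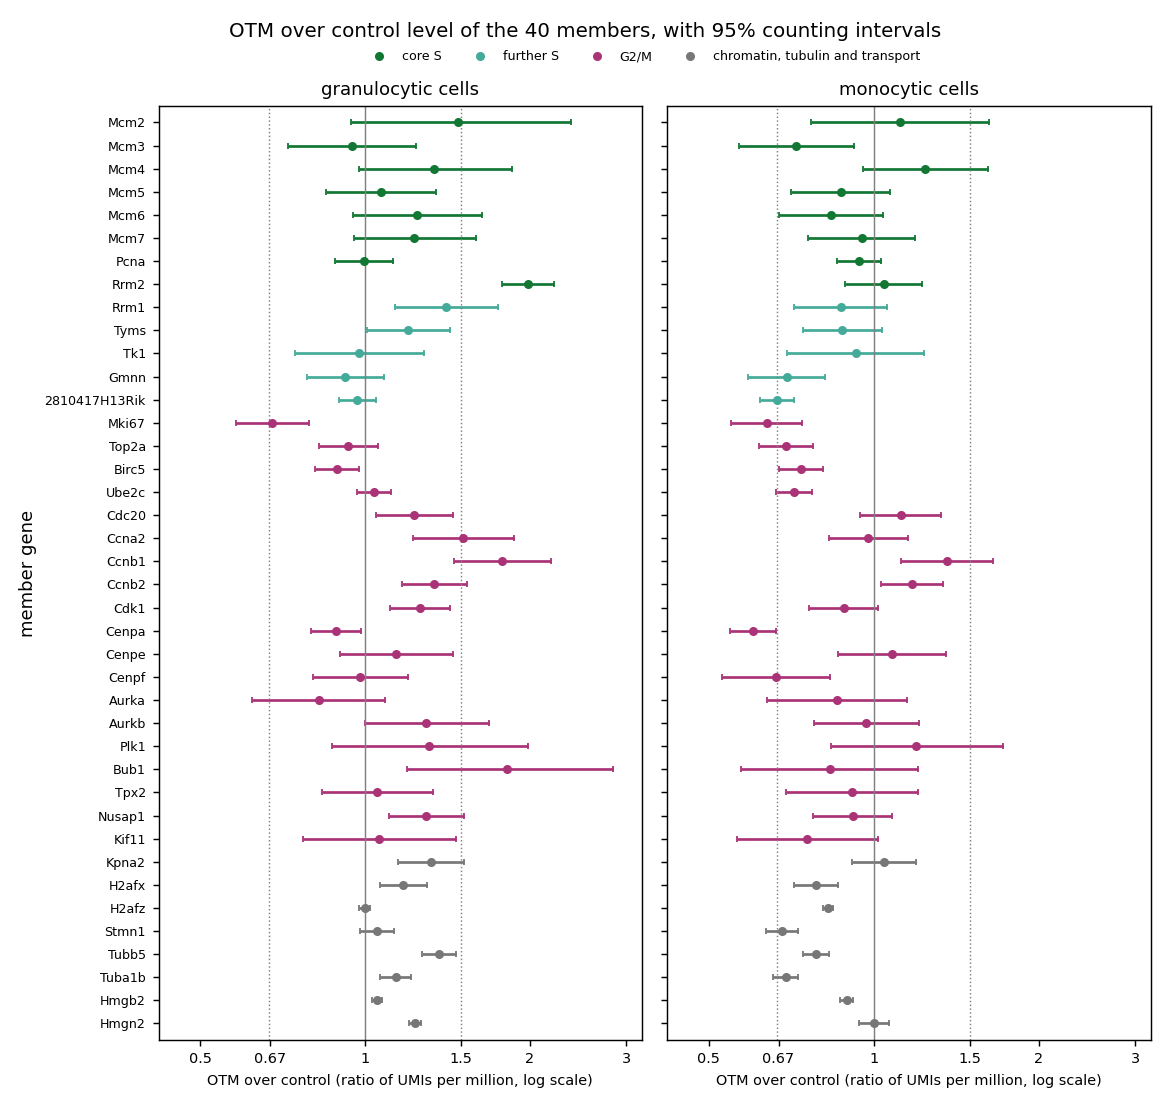
Ratio of OTM to control level of each member in granulocytic (left) and monocytic cells (right) on a log axis, 1 library each, with 95% counting intervals, coloured by list. Dotted lines mark 1.5-fold in either direction, which Rrm2, Ccna2, Ccnb1 and Bub1 pass upward in granulocytic cells and Mki67, Cenpa and Cenpf pass downward in monocytic cells.

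In monocytic cells 5 of the 19 G2/M members were above 1 in OTM over control, both B cyclins among them, and the G2/M sum was at 0.797 (0.771 to 0.824). Cenpa was at 151 CPM in control and 90.7 in OTM, a ratio of 0.602 (0.546 to 0.664). Mki67 was at 62.9 and 40.1 CPM, a ratio of 0.638 (0.549 to 0.740), and Cenpf, a kinetochore protein, at 27.3 and 18.1 CPM, a ratio of 0.664 (0.529 to 0.831). Counted as UMIs per cell, without scaling to depth, Mki67 and Cenpf were above 1 (1.03 and 1.07) and Cenpa was at 0.970. Top2a (104 and 71.7 CPM), Ube2c (221 and 158 CPM) and Birc5 (147 and 108 CPM) were lower by less than 1.5-fold. Ccnb1 was the highest member, at 26.1 and 35.5 CPM, a ratio of 1.36 (1.12 to 1.65), and Ccnb2 was at 60.0 and 70.4 CPM, a ratio of 1.17 (1.03 to 1.34). Cdc20 (1.12), Plk1 (1.20) and Cenpe (1.08) were also above 1, with intervals that included it. Ccna2 (0.976), Aurkb (0.970), Nusap1 (0.915), Tpx2 (0.913), Cdk1 (0.880), Aurka (0.857), Bub1 (0.830) and Kif11 (0.756) were below 1, each with an interval that included 1.

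The S members of monocytic cells were closer to 1 in the core list than outside it. The core S sum was at 295 CPM in control and 278 in OTM (0.943, 0.887 to 1.00, but 1.06 with TMM scaling), with Mcm4 highest (14.8 and 18.4 CPM, 1.24) and Mcm3 lowest (22.7 and 16.4 CPM, 0.722). Pcna was at 133 and 125 CPM (0.940), and Mcm2 (1.12), Mcm5 (0.870), Mcm6 (0.836) and Mcm7 (0.951) had intervals that included 1. The 5 further S genes summed to 399 and 287 CPM, a ratio of 0.718 (0.678 to 0.760), led by 2810417H13Rik (260 and 174 CPM, 0.667) and Gmnn (50.5 and 35.1 CPM, 0.694), while Rrm1 (0.871), Tyms (0.876) and Tk1 (0.926) were nearer to 1. Of the 8 remaining members, Tuba1b was at 492 and 340 CPM (0.690), Stmn1 at 299 and 203 CPM (0.680), Tubb5 at 422 and 331 CPM (0.785), H2afx at 141 and 110 CPM (0.784), H2afz at 2455 and 2023 CPM (0.824) and Hmgb2 at 1354 and 1207 CPM (0.892). Kpna2 (1.04) and Hmgn2 (1.00) were level.

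Past 1.5-fold, 0 members were higher and 3 (7.50%) lower in OTM monocytic cells, against 5.89% and 16.0% of 8247 genes, and neither share is a result about the members, being near or below that of genes at large. Their median ratio was 0.873 beside 0.908 for all genes. In MHC-II-low cells 9 members were lower and 0 higher, against 17.2% and 6.01% of all genes, with medians of 0.808 and 0.899. With TMM scaling, which shifts the monocytic ratios up by 0.16 on the log2 scale, 1 member was higher and 0 lower, and the G2/M sum was at 0.893 in place of 0.797. The make-up of the monocytic class differed as well. MHC-II-high cells were 12.5% of control and 6.97% of OTM cells. All 18 granulocytic markers had UMIs in monocytic cells of both libraries, where they summed to 12731 CPM in control and 21603 CPM in OTM, and all 4 MHC class II genes had them too, at 8991 and 4052 CPM. The part of these differences in the result was not tested.

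In granulocytic cells the 8 chromatin, tubulin and transport members lay between 0.999 and 1.36. Tubb5 was at 196 and 268 CPM (1.36, 1.27 to 1.47), Kpna2 at 53.2 and 70.2 CPM (1.32), Hmgn2 at 1564 and 1929 CPM (1.23), H2afx at 109 and 128 CPM (1.18) and Tuba1b at 266 and 302 CPM (1.14). Hmgb2 (2400 and 2527 CPM, 1.05), Stmn1 (219 and 231 CPM, 1.05) and H2afz (2165 and 2162 CPM, 0.999) were the nearest to 1. In early progenitors Hmgn2 was at 2107 CPM in control and 4038 in OTM, 1.92-fold higher (1.81 to 2.02).

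The next comparison set granulocytic against monocytic cells of the same library. The 18 granulocytic markers took 428831 CPM of control and 394422 CPM of OTM granulocytic cells, and the median gene there was at 0.534 of its monocytic level in control (-0.91 on the log2 scale) and at 0.568 (-0.82) in OTM. Against that background the members stood higher, with medians of 0.814 in control and 1.11 in OTM. In control 3 members were past 1.5-fold higher in granulocytic cells and 7 lower, against 9.35% and 63.4% of all genes, and in OTM 6 were higher and 1 lower, against 9.81% and 59.4%. Hmgn2 was 5.93-fold (5.65 to 6.23) higher in granulocytic cells of control and 7.30-fold (6.96 to 7.66) in OTM. Hmgb2 was 1.77-fold and 2.09-fold higher, and Rrm2 1.85-fold (1.60 to 2.15) and 3.52-fold (3.11 to 4.0) higher. In OTM Cdk1 (1.63), Cenpf (1.62) and Tpx2 (1.61) were also past 1.5-fold. Tubb5 was at 0.466 and 0.809 of its monocytic level, Tuba1b at 0.540 and 0.889, and Pcna at 0.586 and 0.620, so that Pcna was the 1 member past 1.5-fold lower in OTM.

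**Figure D4:**
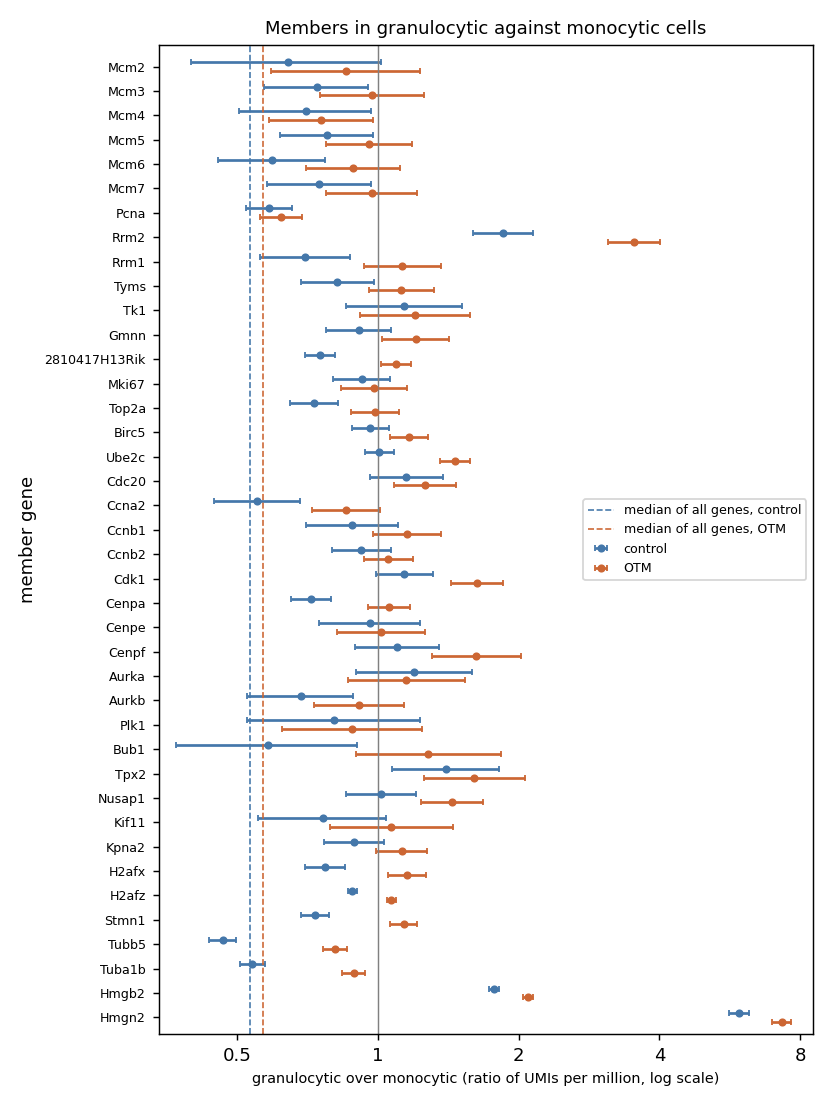
Ratio of the granulocytic to the monocytic level of each member on a log axis, control in blue and OTM in orange, 1 library each, with 95% counting intervals. Dashed lines mark the median of all genes (0.534 in control and 0.568 in OTM), and Hmgn2 (5.93 and 7.30), Hmgb2 and Rrm2 lie farthest to the right.

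How many cells held the transcripts was counted after thinning each cell to 1500 UMIs, which no kept cell fell short of. At least 3 of the 19 G2/M genes were found in 136 of 1282 granulocytic control cells (10.6%, 8.98 to 12.4) and in 130 of 1083 OTM cells (12.0%, 10.1 to 14.1). In monocytic cells they were found in 151 of 1438 (10.5%, 8.96 to 12.2) and 85 of 899 (9.45%, 7.62 to 11.6). At least 3 of the 13 S genes were found in 4.29% and 5.45% of granulocytic and in 5.77% and 5.78% of monocytic cells of control and OTM, so that in each class the intervals of the 2 libraries overlapped for both lists. Without thinning, the shares for G2/M were 17.6% and 21.4% in granulocytic and 15.5% and 14.8% in monocytic cells. Mature neutrophils, which should lack these transcripts, gave the background of free RNA, with the G2/M genes in 0 of 514 control and 0 of 521 OTM cells (0 allows shares of up to 0.584% and 0.576% at 3 counts of the total, and the exact upper limits are 0.715% and 0.706%) and the S genes in 0 and 2 cells, at median depths before thinning of 2376.5 and 3618 UMIs.

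Along the lineages these shares followed the summed levels. Early progenitors had the G2/M genes in 28.6% (18.8 to 40) of control and 36.8% (24.4 to 50.7) of OTM cells, and the S genes in 22.1% (13.4 to 33.0) and 38.6% (26.0 to 52.4). Specific-granule cells had the G2/M genes in 17.7% (15.1 to 20.6) and 23.1% (19.7 to 26.8), and the S genes in 7.16% (5.44 to 9.22) and 10.1% (7.77 to 12.9). MHC-II-low cells had the G2/M genes in 14.0% (12.0 to 16.3) and 11.2% (9.07 to 13.7), and the S genes in 7.40% and 6.83%. In MHC-II-high cells 4 of 353 and 1 of 143 passed for G2/M. Each of these pairs of intervals overlapped between control and OTM.

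**Figure D5:**
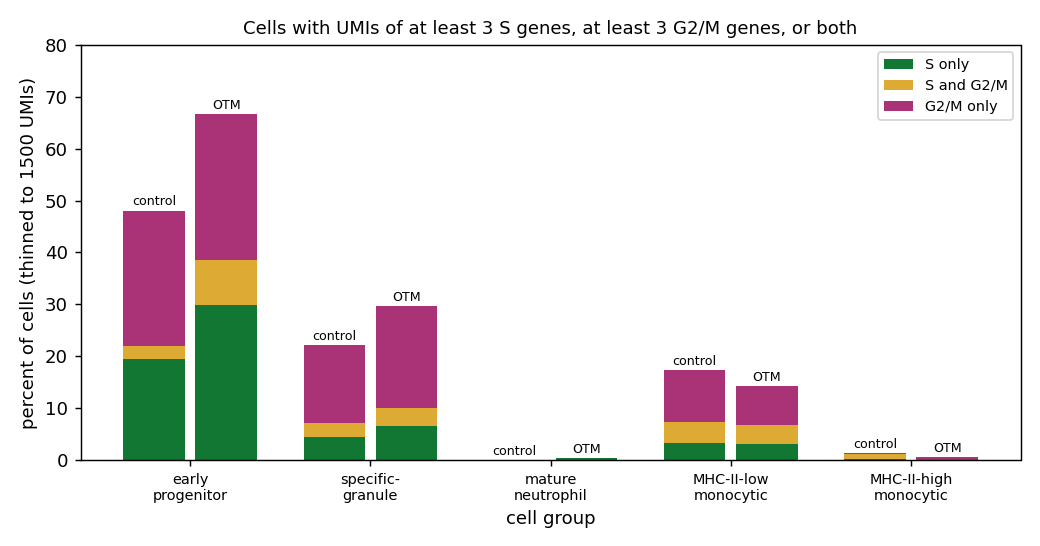
Percent of cells in 5 groups with UMIs of at least 3 of 13 S genes only (green), of at least 3 of 19 G2/M genes only (purple) or of both (yellow), after thinning to 1500 UMIs, control left and OTM right in each pair, 1 library each. Early progenitors have the largest share with either (48.1% and 66.7%), and mature neutrophils almost none.

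The cells that passed for either list were divided by the list they passed for. The lists differ in length and in summed UMIs, so these counts are not shares of cells in each phase. Of 170 such granulocytic cells in control, 34 passed for S alone, 21 for both and 115 for G2/M alone, and of 169 in OTM, 39, 20 and 110. Of 188 monocytic cells in control, 37 passed for S alone, 46 for both and 105 for G2/M alone, and of 109 in OTM, 24, 28 and 57. A cell that passed for S thus also passed for G2/M in 38.2% and 33.9% of cases in granulocytic and in 55.4% and 53.8% of cases in monocytic cells. In early progenitors S alone was 15 of 37 cells in control and 17 of 38 in OTM, beside 20 and 16 for G2/M alone. Cells that passed for either list were the deeper ones before thinning, with medians of 9223 against 2939 UMIs in granulocytic control cells and of 14499 against 4675.5 in OTM.

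The summed levels came from few cells. The 129 granulocytic control cells with the most G2/M UMIs held 76.7% of them, and the 109 such OTM cells held 70.4%. In monocytic cells 144 and 90 cells held 83.6% and 86.4%. No G2/M UMI was found without thinning in 64.7% and 61.5% of granulocytic and in 56.4% and 52.1% of monocytic cells. The largest number in 1 cell was 211 G2/M UMIs, in a monocytic control cell. The counting intervals leave out this variation between cells.

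Other genes of the cycle that are not members were read from 4 lists by the same limits, beside the same shares of all genes (7.82% higher and 12.4% lower in granulocytic, 5.89% and 16.0% in monocytic cells), and lists this short say little against them. Of 21 further G2/M genes with at least 50 UMIs in granulocytic cells, 3 were higher in OTM, Kif2c (4.03 and 8.18 CPM, 2.03), Dlgap5 (7.55 and 13.4 CPM, 1.78) and Kif23 (11.2 and 18.8 CPM, 1.67), and 0 lower, and in monocytic cells 0 of 22 were higher and 2 lower, Bub1b (0.542) and Spc25 (0.648). Of 19 further S genes in granulocytic cells, Ccne1, cyclin E1, was higher (3.52 and 6.84 CPM, 1.94) and Uhrf1, which guides maintenance methylation, lower (12.6 and 6.84 CPM, 0.544), and of 17 in monocytic cells 0 were higher, and Dtl (0.410), Uhrf1 (0.497) and Hells (0.650) were among those lower. Of the G1 cyclins and kinases, none of 5 in granulocytic and 2 of 6 in monocytic cells passed the limit, Ccnd1 (0.511) and Ccnd2 (0.625), both lower. Of 7 inhibitors and pocket proteins, Rb1, the retinoblastoma protein, was lower in granulocytic cells (20.8 and 10.6 CPM, 0.511), and none passed in monocytic cells. From specific-granule to mature neutrophils the G1 list was 1.25-fold and 1.46-fold lower, and the inhibitor list, led by Cdkn1a (218 and 380 CPM in control), was higher, at 0.761 and 0.829 for specific-granule over mature, unlike the S and G2/M members.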

How the data were processed

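The members and lists were chosen with earlier results of these data known. The deposited tables hold UMI counts per gene and barcode, not normalized, made by the authors with Cell Ranger 3.0.0 and, per the submitters' processing notes, Seurat 3.0.0 and the mm10 build. The annotation is not given in the sources used here. Barcodes with at least 200 genes and at most 5% mitochondrial UMIs were kept, while the study's wording, genes per UMIs, was tried as an alternative, and no doublet caller was run. Cells were set aside (38 control, 13 OTM) for UMIs of at least 3 markers of the B, T and NK, or mast cell list. Over 10% of UMIs from hemoglobin genes also set a cell aside. Plasmacytoid dendritic markers were not used for this. The granulocytic cut, 0.814 on the score difference, and the stage and MHC-II cuts were set by Otsu's method on both libraries together. The T cell gene Trbc2 was not used here.

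UMIs were summed over the cells of a group in each library (14493851 control and 16472699 OTM UMIs). Levels carry exact Poisson, ratios exact conditional binomial and shares Clopper-Pearson 95% intervals, which cover counting error only. With 1 library a group no test was run. A call needed 50 UMIs over both libraries and 1.5-fold, and the text names all 40 members and those non-members past that limit, except 1 that is not reported here. Steps were tested on simulated data. Python 3.11.15, scipy 1.17.1, scanpy 1.11.5 (Leiden classes, an alternative) and edgeR 4.0.16 (TMM factors only) were used.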

Additional observations from a re-analysis of the deposited data

Results flagged for a closer look

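Some results pointed one way in granulocytic and the other way in monocytic cells, OTM over control. The 19 G2/M genes were at 1.06 in granulocytic and 0.797 in monocytic cells, the 13 S genes at 1.17 and 0.813, and the 8 chromatin, tubulin and transport genes at 1.09 and 0.828. Among single members, H2afx was at 1.18 and 0.784, Tubb5 at 1.36 and 0.785, Tuba1b at 1.14 and 0.690, and Hmgb2 at 1.05 and 0.892. In each case both counting intervals lay on opposite sides of 1. For the G2/M genes this opposition depended on the settings: with at least 200 genes per 1000 UMIs both classes were below 1 (0.526 and 0.566), as UMIs per cell both were above it (1.72 and 1.28), and with totals without abundant genes the granulocytic interval included 1 (1.01, 0.978 to 1.05). The levels of the other lists and of the single members named here were not read under these settings. Their opposition is therefore given for the main settings only. TMM scaling shifts the monocytic ratios up by 0.16 on the log2 scale, and OTM cells of both classes held more UMIs per cell. With 1 library a group, the difference between the classes was not tested.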

How the results depend on the processing

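No paired analysis was possible because each group is 1 library. Values in fours are granulocytic control, granulocytic OTM, monocytic control and monocytic OTM. The share of all genes past 1.5-fold was counted for the main settings only. Counts of members under an alternative are therefore not results about the members. With at least 200 genes per 1000 UMIs, the core S to G2/M ratio was 0.450, 0.675, 0.290 and 0.407, and OTM over control was 0.790 (core S) and 0.526 (G2/M) in granulocytic and 0.796 and 0.566 in monocytic cells. There 0 members were higher and 17 lower in granulocytic and 22 lower in monocytic cells. In granulocytic cells Rrm2 (0.799, 0.589 to 1.07), Ccna2 (0.524, 0.222 to 1.11), Ccnb1 (0.923, 0.410 to 1.94) and Bub1 (0.30, 0.00665 to 2.33) were below 1. Each of these intervals included 1. Shares of cells with several S genes were 3.03% and 3.22% in granulocytic and 4.13% in monocytic OTM cells, and with several G2/M genes 4.39%, 2.97% and 6.20%. The cause was not tested.

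Without the 5% of cells with the most UMIs the ratio was 0.298, 0.342, 0.352 and 0.393, granulocytic G2/M was at 1.17, 8 members were higher in granulocytic and 1 higher and 5 lower in monocytic cells, the G2/M shares were 7.81%, 9.82%, 7.47% and 6.56% and the monocytic S shares 4.32% and 4.10%. The ratio was 0.564, 0.625, 0.643 and 0.657 with 13 S genes, 0.0301, 0.0378, 0.0449 and 0.0514 with 8 more G2/M genes, and 0.166, 0.171, 0.235 and 0.274 without Rrm2, a list chosen after seeing the data whose granulocytic level was at 1.08. Without the genes with the most UMIs (Pcna, Ube2c) it was 0.212 in granulocytic control and 0.188 and 0.217 in monocytic cells. With the class cut at 0 it was 0.262 in granulocytic control and 0.259 and 0.306 in monocytic cells, where G2/M was at 0.765 and 5 members were lower. With early progenitors counted as granulocytic it was 0.294 and 0.36, and the OTM S share was 7.11%.

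TMM scaling gave G2/M 1.11 in granulocytic and 0.893 in monocytic cells, core S 1.06 in monocytic cells, and there 1 member higher and 0 lower. UMIs per cell are not scaled to depth, and OTM cells held more of them. Their medians were 5341 against 3198.5 in granulocytic and 7490 against 4259.5 in monocytic cells. Read that way, core S was at 2.23 and G2/M at 1.72 in granulocytic and 1.52 and 1.28 in monocytic cells. There 35 granulocytic and 14 monocytic members were higher and 0 monocytic members lower, and Mki67 (1.03) and Cenpf (1.07) were above 1 in monocytic cells. Means over cells gave G2/M 1.09 and 0.854, and 1 monocytic member higher and 1 lower. Totals without abundant genes gave granulocytic G2/M 1.01, with 1 member lower there and 5 in monocytic cells. Monocytic members lower were 6 without cells near the cut and 5 with other lineages kept. Past 2-fold, 0 members were higher in granulocytic and 0 lower in monocytic cells. With at least 2 genes the S shares were 8.35%, 10.4%, 10.2% and 10.3%, and the G2/M shares 14.98% and 16.4% in granulocytic and 13.8% in monocytic control cells. Without thinning the S shares were 14.98%, 19.9%, 13.8% and 16.7% and the G2/M shares 17.6%, 21.4%, 15.5% and 14.8%. Depth limits the lowest members, such as Mcm2 and Bub1, most.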

Other observations

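Cells set aside for markers of other lineages were in neither class. Their core S genes summed to 899 CPM in 38 control cells and 662 CPM in 13 OTM cells, and their G2/M genes to 1557 and 591 CPM. Of them, 14 control and 2 OTM cells had at least 3 of the 13 S genes after thinning.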
